A study of Mus musculus with 6 samples.

Results

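A set of 10 G protein-coupled receptors (GPCRs) linked to myelination were followed in sciatic nerves of mice on postnatal day 3: Adgrg6, Adgrg1, Adgrb3, Gpr37, Gpr37l1, Gpr17, Lpar1, Lpar6, S1pr1 and S1pr3. Each symbol matched 1 row of the deposited count table, so the 10 receptors are 10 of its 54838 genes, and all 10 passed the filter on low counts. One group was wild type (WT, 3 libraries) and the other carried the genotype given as CnpCre Actl6afl/fl (here cKO, 3 libraries), both of the strain given as C57 Bl. In the cKO the Cre recombinase is driven by Cnp, a gene of myelinating glia, and Actl6a, which encodes the chromatin remodelling subunit BAF53a, is flanked by loxP sites. The labels do not say whether WT mice carried Cre or the floxed allele, nor whether a library holds 1 animal or several. The p-values therefore measure the spread between these libraries, which may be technical in part. The comparison asks how loss of Actl6a in cells of the Cre lineage changes the transcripts of the nerve.

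A GPCR crosses the membrane in a bundle of helices and passes a signal from outside the cell to a heterotrimeric G protein inside it. In Schwann cells, the glia that myelinate peripheral axons, the adhesion receptor Adgrg6 (also called Gpr126) raises cyclic AMP through a stimulatory G protein, and this signal leads immature cells to switch on the transcription factors Pou3f1 and Egr2 and to begin myelination. Other receptors of the group bind the prosaposin protein or the bioactive lipids lysophosphatidic acid (LPA) and sphingosine 1-phosphate (S1P), which act on the shape and survival of Schwann cells. The nerve also holds endothelial cells, fibroblasts, perineurial cells, macrophages and pericytes, and several of these receptors are known from those cells as well.

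Libraries held 31404107 to 36760296 counts. Levels of a gene across libraries are given as CPM, the usual counts-per-library-size unit, with library sizes scaled by the TMM method, and a gene was called when its edgeR quasi-likelihood p, Benjamini-Hochberg adjusted over all 18775 genes tested, was below 0.05. Actl6a itself averaged 49.4 ± 3.61 CPM in WT, against 43.8 ± 3.29 in cKO (SD, 3 libraries each), and was not called (edgeR adjusted p = 0.243). Its log2 fold change was -0.17, and without cKO replicate 2 it was -0.24 and called lower (edgeR adjusted p = 0.0487). The Actl6a count covers all exons of the gene in whole nerve. The library of cKO replicate 2 stood apart: 8 skeletal muscle markers summed to 63337 CPM there and to 3546 to 5186 CPM in the other 5 libraries. Erythroid markers summed to 2720 to 3936 CPM in WT and were above that in all 3 cKO libraries, at 21840, 8764 and 6733 CPM, with 3 of 6 called higher. Schwann cell markers were abundant in WT, where 7 of them summed to 21399 to 24936 CPM, and 5 of the 7 fell in cKO, with sums of 2633 to 4700 CPM. In whole nerve, fewer cells of a type and less RNA per cell cannot be told apart.

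Of the 10 receptors, 5 fell (Gpr37, Gpr37l1, Adgrg6, Adgrg1 and Lpar1), 1 rose (Gpr17) and 4 were not called (Adgrb3, Lpar6, S1pr1 and S1pr3). Over all genes tested, 10.3% fell, 8.55% rose and 18.8% were called in either direction. The 6 called receptors were also those whose WT and cKO values did not overlap, which held for 42.7% of all genes tested. The median log2 fold change of the 10 was -0.32 (-0.21 without cKO replicate 2), against 0.04 over all genes tested. Without cKO replicate 2 the calls were the same 5 lower and 1 higher, while 17.6% of genes fell and 17.8% rose.

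**Figure D1:**
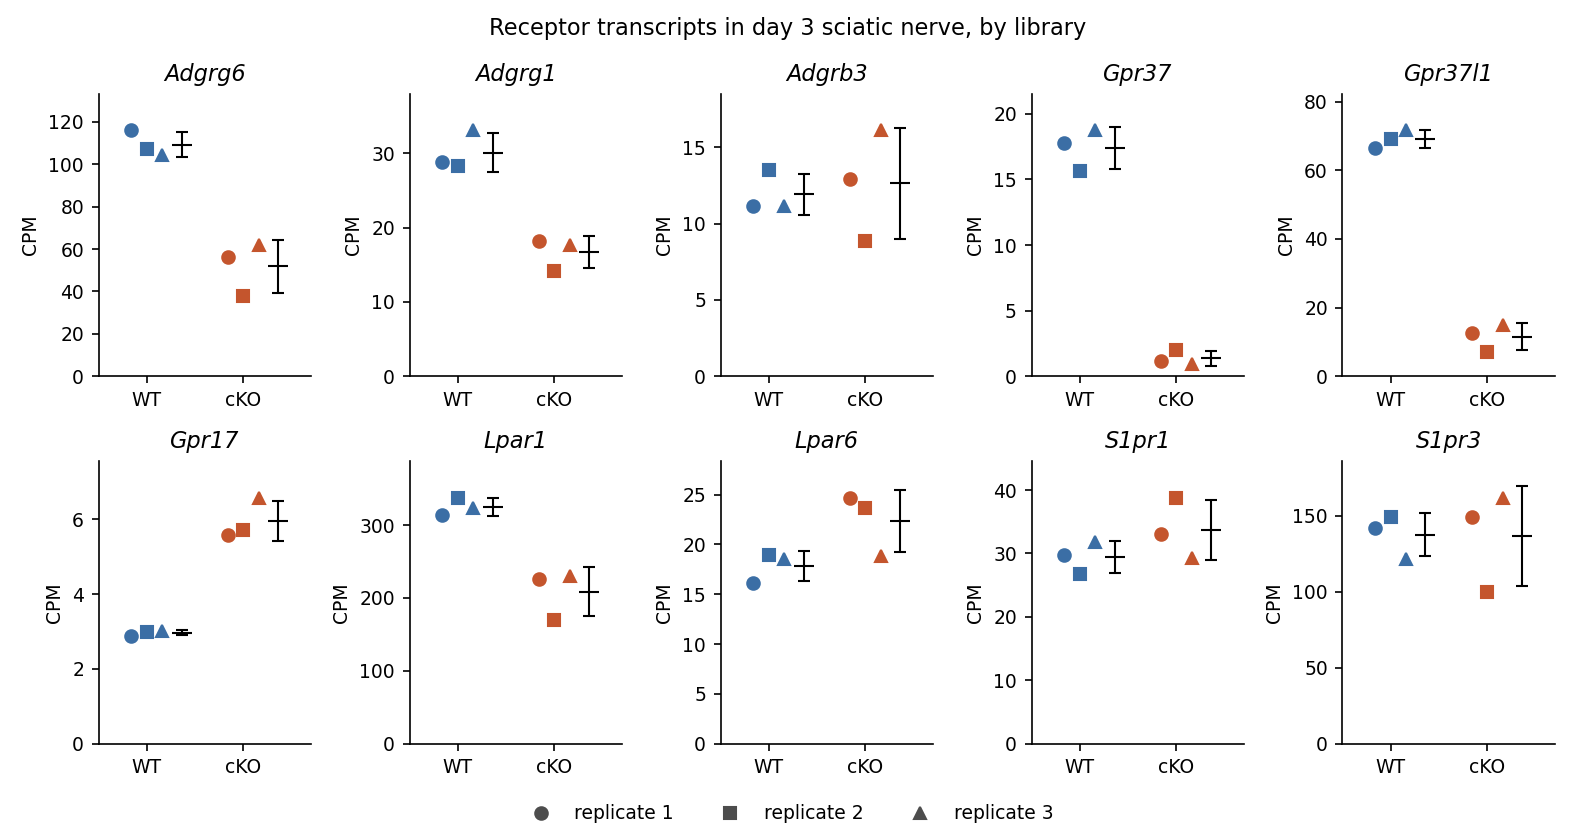
Transcript level in CPM (linear axes from 0) of each receptor in the 3 WT (blue) and 3 cKO (orange) libraries, with marker shape for the replicate number and bars for mean and SD. Groups are apart for Adgrg6, Adgrg1, Gpr37, Gpr37l1, Gpr17 and Lpar1 and overlap for the other 4, and cKO replicate 2 is the lowest library for Adgrg6, Adgrg1, Adgrb3, Gpr37l1, Lpar1 and S1pr3.

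Among the adhesion receptors, Adgrg6 (ENSMUSG00000039116, GRCm38 chromosome 10, 14402583 to 14545659, minus strand) stood at 116, 107 and 105 CPM in WT, against 56.2, 37.8 and 61.8 in the cKO libraries. All 3 cKO libraries lay below all 3 WT libraries, and cKO replicate 2 was lowest. The transcript fell 2.10-fold, with a mean of 109 ± 5.98 against 51.9 ± 12.6 CPM (SD, 3 libraries each), or -1.07 on the log2 scale (SE 0.18, edgeR adjusted p = 0.00926). Its call was lost without WT replicate 1 (log2 fold change -1.03, edgeR adjusted p = 0.0506). Exons of Adgrg6 overlap 441 bases of the antisense gene Gm46212, which had 5 to 17 counts a library.

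Adgrg1 (Gpr56; ENSMUSG00000031785, chromosome 8, 94974751 to 95014217, plus strand) is a relative of Adgrg6 that signals through the G12 and G13 family and is known in developing Schwann cells for its part in sorting axons. WT libraries held 28.9, 28.3 and 33.1 CPM and cKO libraries 18.3, 14.2 and 17.7, with no overlap of the groups. The fall was 1.80-fold (log2 fold change -0.85, SE 0.13, edgeR adjusted p = 0.00675), and it was called in each of the 6 leave-one-out fits, which leave out 1 library at a time.

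Adgrb3 (Bai3; ENSMUSG00000033569, chromosome 1, 25067476 to 25829707, minus strand) is best known from neurons, where it binds C1q-like proteins at synapses. Levels were 11.1, 13.5 and 11.2 CPM in WT, against 12.9, 8.87 and 16.1 in the cKO. The cKO libraries spanned the whole WT range, with cKO replicate 2 below it and replicate 3 above it. No difference was called (log2 fold change 0.09, 95% interval -0.44 to 0.61, edgeR adjusted p = 0.810), and the value turned to -0.13 without cKO replicate 3.

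Gpr37 (ENSMUSG00000039904, chromosome 6, 25665878 to 25690729, minus strand), an orphan-like receptor of myelinating glia for which prosaposin is a proposed ligand, had the largest change of the 10. WT libraries read 17.8, 15.7 and 18.7 CPM, from 544 to 685 counts. The cKO libraries read 1.18, 1.97 and 0.914 CPM, from 32 to 55 counts. The fall was 12.9-fold, from a mean of 17.4 ± 1.57 to 1.36 ± 0.551 CPM (SD, 3 libraries each, log2 fold change -3.69, SE 0.28, edgeR adjusted p = 0.000708). Ordered by log2 fold change, with each symbol counted once, Gpr37 was number 11 from the lowest of the genes tested. In contrast to Adgrg6, Adgrg1, Gpr37l1 and Lpar1, its highest cKO value was in replicate 2, and without that library its log2 fold change was -4.05.

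Gpr37l1 (ENSMUSG00000026424, chromosome 1, 135160234 to 135167681, minus strand), the closest relative of Gpr37 and known from astrocytes and satellite glia, read 66.5, 69.1 and 71.6 CPM in WT. In cKO it read 12.6, 7.14 and 14.8 CPM, each below the lowest WT library. The fall was 5.996-fold, from a mean of 69.1 ± 2.58 to 11.5 ± 3.93 CPM (SD, 3 libraries each, log2 fold change -2.58, SE 0.26, edgeR adjusted p = 0.00204). Both genes were called in all 6 leave-one-out fits. The astrocyte markers Gjb6 and Slc1a2 had 0.59 and -0.25 and were not called (edgeR adjusted p = 0.194 and 0.509). Aqp4, which skeletal muscle also expresses, read 99.1 CPM in cKO replicate 2 and 1.76 to 5.86 CPM elsewhere.

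Gpr17 (ENSMUSG00000052229, chromosome 18, 31942997 to 31949636, minus strand), a receptor of immature oligodendrocytes in the central nervous system that holds back their maturation, was the 1 receptor that rose. It read 2.89, 3.00 and 3.01 CPM in WT, from 96 to 110 counts. In cKO it read 5.59, 5.71 and 6.57 CPM, from 159 to 230 counts, all above WT. The rise was 2.01-fold (log2 fold change 1.01, SE 0.15, edgeR adjusted p = 0.00545) and was called in all 6 leave-one-out fits. Gpr17 lies inside the span of Lims2 on the other strand, and their exons share 188 bases. Lims2 averaged 23.5 ± 1.37 CPM in WT, against 29.4 ± 4.63 in cKO (SD, 3 libraries each, log2 fold change 0.32, edgeR adjusted p = 0.139), and since strand was not used, reads of unspliced Lims2 RNA within Gpr17 exons cannot be told apart from Gpr17. Oligodendrocyte markers were near 0: Olig2 had 1 count in all 6 libraries together and Olig1 0 to 2 counts a library. The 5 markers summed to 1.79 to 2.96 CPM in WT and 0.429 to 1.003 CPM in cKO, and Mobp, the only 1 of them that could be tested, fell (log2 fold change -2.80, edgeR adjusted p = 0.0103).

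Lpar1 (ENSMUSG00000038668, chromosome 4, 58435255 to 58553898, minus strand), the main LPA receptor of Schwann cells, had 314, 337 and 323 CPM in WT nerves, against 227, 170.4 and 229.6 in the cKO. The groups did not overlap, and cKO replicate 2 was again lowest. The fall was 1.55-fold, with a mean of 325 ± 12 against 208.9 ± 33.4 CPM (SD, 3 libraries each, log2 fold change -0.64, SE 0.13, edgeR adjusted p = 0.0197). The call was lost without WT replicate 1, 2 or 3 (edgeR adjusted p = 0.0719, 0.0884 and 0.0809), where the log2 fold change was -0.67, -0.62 and -0.65.

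Lpar6 (ENSMUSG00000033446, chromosome 14, 73237895 to 73243294, plus strand), an LPA receptor of another subfamily, had 16.1, 18.9 and 18.6 CPM in WT nerves, against 24.7, 23.6 and 18.9 in the cKO. Replicate 3 of the cKO fell within the WT range and the other 2 lay above it. The difference, 0.33 on the log2 scale with a 95% interval of 0.0080 to 0.64, was not called (edgeR adjusted p = 0.137). The gene lies inside Rb1 on the other strand, with 408 shared exonic bases. Rb1 went the other way in sign, with -0.53 and no call (edgeR adjusted p = 0.113).

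S1pr1 (ENSMUSG00000045092, chromosome 3, 115710433 to 115715072, minus strand), a receptor abundant on endothelial cells, had 29.8, 26.8 and 31.7 CPM in WT nerves, against 33.1, 38.8 and 29.3 in the cKO. Replicates 1 and 2 of the cKO lay above WT and replicate 3 within it. On the log2 scale the difference was 0.19 (95% interval -0.11 to 0.50, edgeR adjusted p = 0.315). Of 6 endothelial markers edgeR called 0 in either direction, with 1 higher at an unadjusted p below 0.05 and 0 by DESeq2, and their summed level was 448 to 485 CPM in WT and 487 to 570 CPM in cKO.

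S1pr3 (ENSMUSG00000067586, chromosome 13, 51408639 to 51422797, plus strand), which couples to several G proteins and is found on Schwann cells, pericytes and smooth muscle, read 142, 149 and 122 CPM in WT. It read 149, 99.6 and 162 CPM in cKO, on both sides of the WT range. On the log2 scale it differed by -0.0065 (95% interval -0.45 to 0.44, edgeR adjusted p = 0.985), and 0.18 without cKO replicate 2 (edgeR adjusted p = 0.155). Of 5 pericyte and smooth muscle markers, 1 fell, Pdgfrb, and 4 were not called. Its exons share 45 bases with the antisense gene Gm32834, which had 4 to 23 counts a library.

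**Figure D2:**
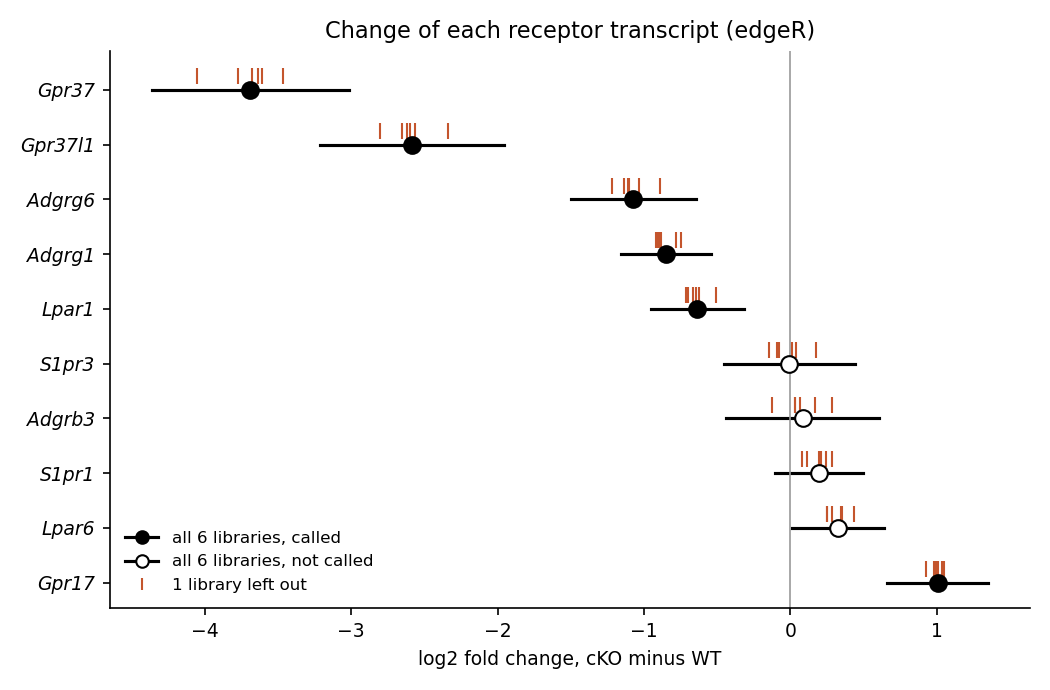
Log2 fold change (cKO minus WT) of each receptor with its 95% interval from the edgeR fit of all 6 libraries (circles, filled where called) and from the 6 leave-one-out fits (orange ticks). Gpr37 and Gpr37l1 lie at -3.69 and -2.58, Gpr17 at 1.01, and the intervals of Adgrb3, S1pr1 and S1pr3 include 0.

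Levels of different genes were compared per length, as TPM (counts divided by the exonic length of each gene and scaled to the same total in every library). In WT nerve Lpar1 was the most abundant of the 10, at 229 ± 5.39 TPM (SD, n = 3), above 96.5% of the genes tested. S1pr3 (93.2 ± 10.7 TPM) and Gpr37l1 (92.0 ± 1.47 TPM) followed, and their ranges overlapped. S1pr1 (29.3 ± 2.63 TPM) and Adgrg6 (27.1 ± 2.33 TPM) overlapped as well. Below them came Adgrg1 (16.8 TPM), Lpar6 (9.99 TPM), Gpr37 (8.68 TPM), Adgrb3 (1.94 TPM) and Gpr17 (1.73 TPM), with no overlap between neighbours.

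The order differed in cKO nerve. Gpr37 was lowest at 0.602 ± 0.168 TPM (SD, n = 3), above 6.84% of the genes tested, where it had been above 43.1% in WT. Gpr37l1 went from 92.0 to 14.5 ± 6.28 TPM, a range that overlapped that of Adgrg6 (12.03 ± 4.11 TPM), which in turn overlapped that of Lpar6 (11.4 ± 1.33 TPM). Lpar1 (137 ± 35.9 TPM) and S1pr3 (86.8 ± 29.4 TPM) stayed the first 2 with overlapping ranges, ahead of S1pr1 at 30.4 ± 0.770 TPM. Gpr17, at 3.20 ± 0.624 TPM, overlapped Adgrb3 at 1.94 ± 0.756 TPM. TPM has a fixed total within a library, which in cKO replicate 2 includes the muscle transcripts.

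**Figure D3:**
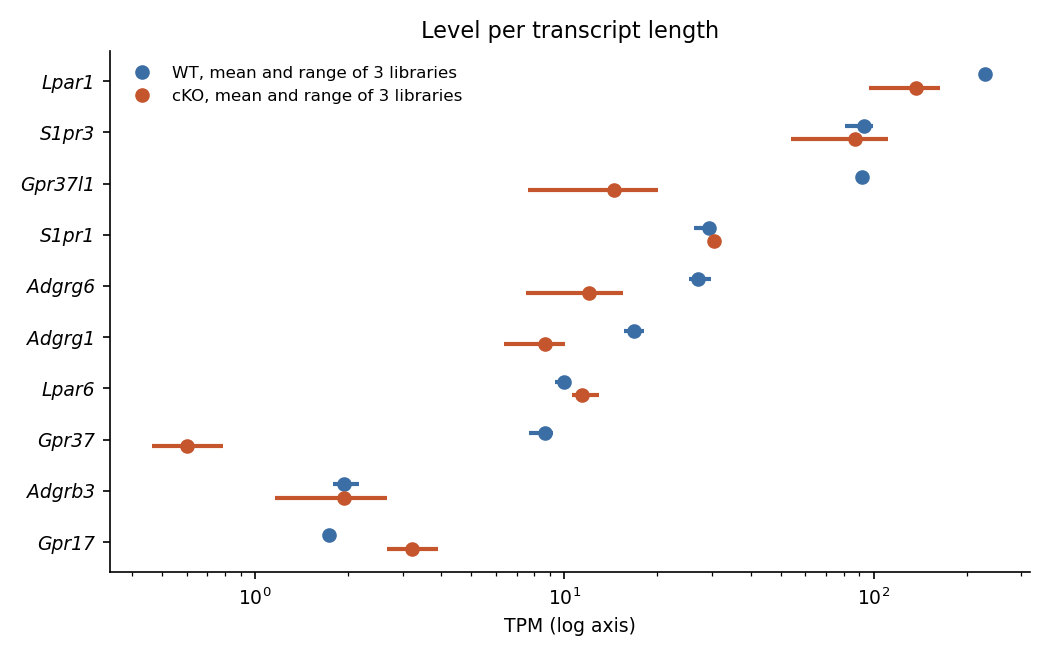
Level per transcript length (TPM, log axis) of each receptor in WT (blue) and cKO (orange), as the mean (circle) and range (line) of 3 libraries, ordered by the WT mean. Gpr37 drops from 8.68 to 0.602 TPM and Gpr37l1 from 92.0 to 14.5 TPM, while the S1pr1 means are 29.3 and 30.4 TPM.

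Whether related receptors changed by the same factor was asked with the ratio of their counts within each library, for 4 pairs. Gpr37 to Gpr37l1 was 0.268, 0.227 and 0.262 in WT and 0.0942, 0.276 and 0.0619 in cKO. In cKO replicates 1 and 3 Gpr37 was thus lower relative to Gpr37l1 than in any WT library, whereas in replicate 2 the ratio lay just above the WT values. The mean log2 ratio differed by -1.09 (exact two-sided permutation p = 0.4, adjusted over the 4 pairs 0.533) and by -1.70 without cKO replicate 2 (exact p = 0.1, the smallest that 3 against 2 libraries allow). Lpar1 to Lpar6 was 19.5, 17.8 and 17.4 in WT and 9.19, 7.21 and 12.2 in cKO, with no overlap. That difference was -0.97 on the log2 scale (exact permutation p = 0.1, the smallest possible with 3 against 3, adjusted 0.4). Adgrg6 to Adgrg1 went from 4.02, 3.80 and 3.16 to 3.08, 2.66 and 3.49 (difference in log2 ratio -0.25, exact permutation p = 0.2, adjusted 0.4). S1pr1 to S1pr3 went from 0.210, 0.180 and 0.261 to 0.222, 0.389 and 0.181 (difference 0.22, exact permutation p = 0.6, adjusted 0.6), and the difference was -0.10 without cKO replicate 2. None of the 4 pairs could reach 0.05 in this design.

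**Figure D4:**
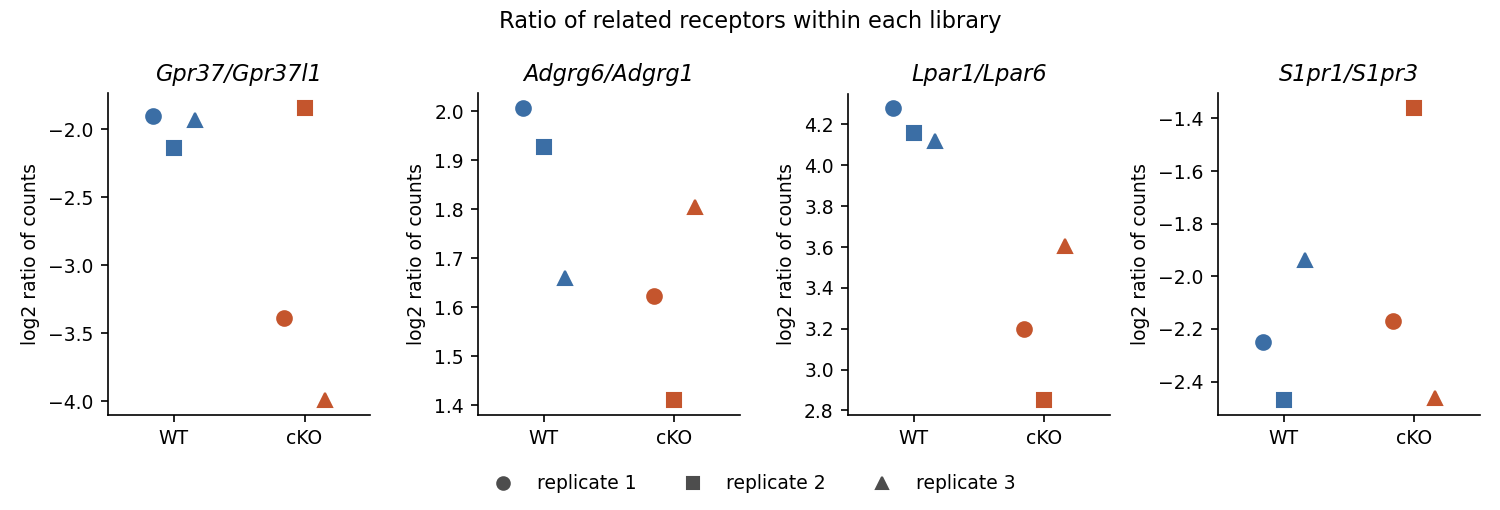
Log2 ratio of the counts of 2 related receptors in each library, for 4 pairs, with WT in blue, cKO in orange and marker shape for the replicate number. Lpar1/Lpar6 is lower in all 3 cKO libraries, and for Gpr37/Gpr37l1 cKO replicates 1 and 3 lie at -3.39 and -3.99 while replicate 2 lies at -1.85, beside WT.

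Promoter windows were available from RefSeq (GRCm38.p6) for 8 of the 10 receptors, as 11 windows of the 250 bases before an annotated start. The 2 printed here lie before starts of receptors that fell, hold no exon of the counted annotation, and show a window without and a window with the core motif of SOX factors such as Sox10, which is in capitals.
Gpr37l1, chr1:135167682-135167931, minus strand: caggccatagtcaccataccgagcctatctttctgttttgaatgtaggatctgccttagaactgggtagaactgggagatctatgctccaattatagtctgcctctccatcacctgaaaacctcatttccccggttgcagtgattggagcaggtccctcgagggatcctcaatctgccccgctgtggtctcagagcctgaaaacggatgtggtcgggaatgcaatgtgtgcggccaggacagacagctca
Lpar1, internal start, chr4:58499404-58499653, minus strand: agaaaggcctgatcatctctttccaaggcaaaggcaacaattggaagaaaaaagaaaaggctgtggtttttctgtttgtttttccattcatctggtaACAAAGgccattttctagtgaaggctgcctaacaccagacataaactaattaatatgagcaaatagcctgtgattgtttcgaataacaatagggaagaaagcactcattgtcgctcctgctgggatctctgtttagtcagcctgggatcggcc
The GC content was 52% for the Gpr37l1 window, 41.6% for this Lpar1 window and 69.6% for the Adgrg6 window, against a median of 52.4% over all 32851 windows. All 250 bases of the Adgrg6 window, and of the Gpr37 window, lie in exons of the counted annotation. Windows of Adgrg1 and some of Lpar1 overlap such exons in part. Each motif was searched on both strands. The SOX core ACAAAG was in 3 of the 11 windows (1 of Adgrg1 and 2 of Lpar1) and in 16.5% of all windows. The core of the cAMP response element, TGACG, was in 2 of the 11 (Adgrg6 and 1 of Adgrg1) and in 17.8% of all windows. The full element TGACGTCA, which contains that core, and the EGR core GCGTGGG were in 0 of the 11, and in 1.55% and 4.30% of all windows.

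Proteins known or proposed to bind these receptors were mostly not called: 2 rose and 1 fell among the 12 tested (median log2 fold change -0.09, and -0.03 without cKO replicate 2, where 4 rose and 2 fell). Counts in this list and those below stand beside 8.55% of all genes tested that rose and 10.3% that fell. Without cKO replicate 2 these shares were 17.8% and 17.6%. Lama2, the alpha chain of laminin-211 that tunes Adgrg6, fell from 900.2 ± 111 to 591 ± 99.0 CPM (SD, 3 libraries each, log2 fold change -0.61, edgeR adjusted p = 0.0427), a call held in 1 of 6 leave-one-out fits. The collagen IV genes Col4a1 (-0.09) and Col4a2 (-0.08), whose protein binds Adgrg6, and the prion protein gene Prnp (-0.29) were not called, and neither was Psap (-0.06), which encodes prosaposin. The 2 that rose, C1ql1 (1.42) and C1ql2 (2.57), encode C1q-like partners of Adgrb3 and were rare, with WT means of 0.551 and 0.0657 CPM, against 1.47 and 0.414 in the cKO. Their calls held in 1 and 3 of the 6 leave-one-out fits, and neither was called without WT replicate 1, WT replicate 2 or cKO replicate 3. C1ql3, the most abundant of them, had -0.13 (edgeR adjusted p = 0.755).

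For the lipid ligands, edgeR called 0 of 10 genes that make or remove LPA and S1P (3 at an unadjusted p below 0.05, 1 by DESeq2). Enpp2, which encodes the LPA-producing enzyme autotaxin, had -0.14 (edgeR adjusted p = 0.460). The sphingosine kinase genes Sphk1 and Sphk2 had 0.14 and -0.0022. Among the other LPA and S1P receptors edgeR also called 0 of 6 tested (1 at an unadjusted p below 0.05, 0 by DESeq2). Lpar4, a relative of Lpar6, was the most abundant of these in CPM, with 117 ± 9.89 in WT and 99.3 ± 6.32 in cKO (SD, 3 libraries each, log2 fold change -0.24, edgeR adjusted p = 0.130), and S1pr2 had 0.18. Without cKO replicate 2, edgeR called 2 of the 10 metabolic genes in each direction and 1 of the 6 receptors.

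The wider adhesion receptor family changed in both directions. Among 20 other members that could be tested there were 6 rises, 6 falls and 8 without a call, with a median log2 fold change of -0.03, which turned to 0.07 without cKO replicate 2; another 6 were too low to test. The 3 Celsr genes, large cadherins of planar cell polarity, all fell: Celsr2 from 105 ± 11.4 to 19.7 ± 4.90 CPM (SD, 3 libraries each, log2 fold change -2.41, edgeR adjusted p = 0.00104), Celsr3 by -2.37 and Celsr1 by -1.87. Adgrb1 (Bai1), an engulfment receptor and a relative of Adgrb3, fell from 9.67 ± 1.28 to 1.08 ± 0.347 CPM (log2 fold change -3.15, edgeR adjusted p = 0.000993). Adgrb2 (-0.72) and the latrophilin gene Adgrl1 (-0.35) fell as well, in fewer than all leave-one-out fits (1 and 2 of 6). The calls of Adgrb1 and the 3 Celsr genes held in all 6.

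Of the 6 that rose, Adgrd1 went from 32.6 ± 2.35 to 70.8 ± 4.77 CPM (SD, 3 libraries each, log2 fold change 1.12, edgeR adjusted p = 0.000965), a call held in all 6 leave-one-out fits. Adgrv1 (1.45), Adgre4 (1.03), Adgrg2 (0.81), Adgre1 (0.79) and Adgre5 (0.69) rose too, and none of these calls held in more than 4 of those fits. Without WT replicate 3, 1 of the 6 rises was called, and without WT replicate 1, 2. Adgre1 encodes the macrophage antigen F4/80, and macrophage markers moved with it: 5 of 6 rose, and their summed level was 362 to 411 CPM in WT and 614 to 774 CPM in cKO. Their part in the rise of Adgre1 was not tested. Adgrl4 and Adgrf5, known from endothelial cells, had 0.44 and 0.11 and were not called.

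**Figure D5:**
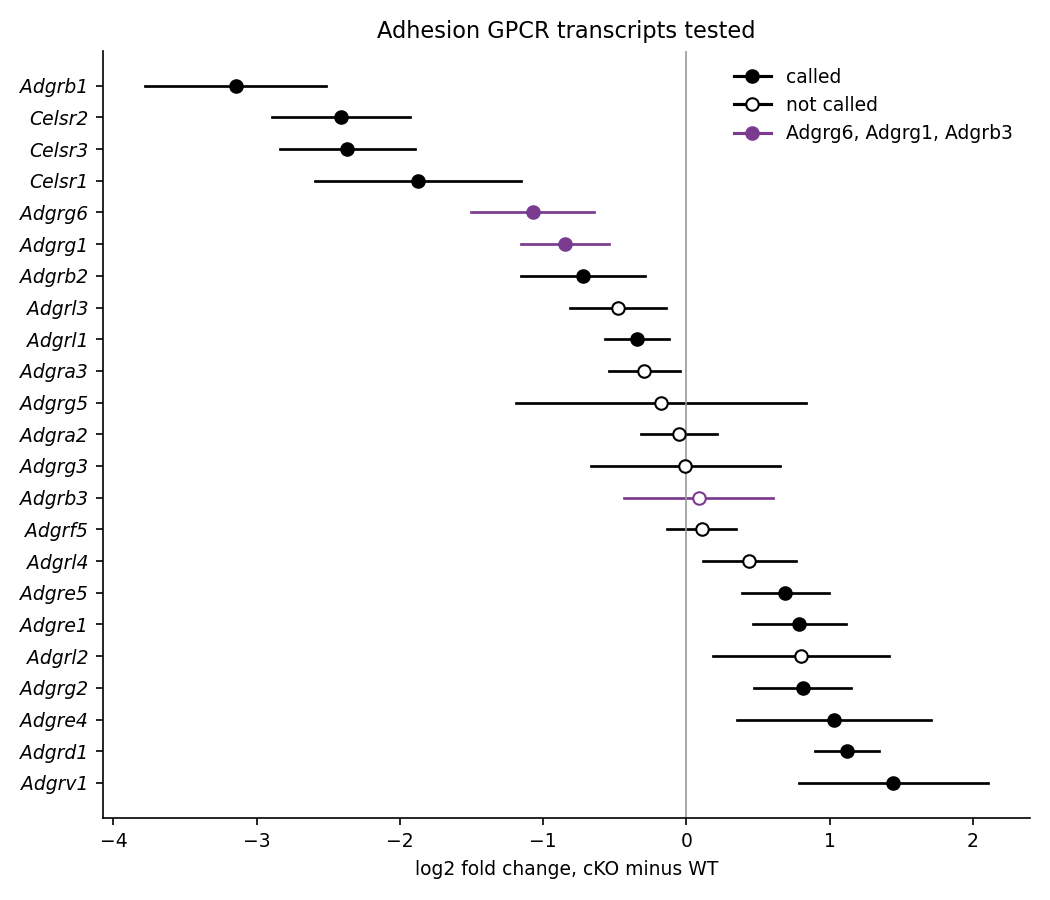
Log2 fold change (cKO minus WT) with its 95% interval for the 23 adhesion receptor genes tested, filled where called; Adgrg6, Adgrg1 and Adgrb3 are in purple. Adgrb1 (-3.15) and Celsr2, Celsr3 and Celsr1 (-2.41, -2.37 and -1.87) lie below Adgrg6 (-1.07), and Adgrv1 (1.45) and Adgrd1 (1.12) lie at the other end.

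Among the G protein alpha subunits, through which these receptors signal, there were 1 rise and 2 falls among 12 genes (median log2 fold change -0.11, and -0.03 without cKO replicate 2, where 3 rose and 3 fell). Of all genes tested, 8.55% rose and 10.3% fell. Gnas, the stimulatory subunit used by Adgrg6, had 157, 129 and 133 CPM in WT nerves, against 165, 211 and 200.8 in the cKO (log2 fold change 0.46, edgeR adjusted p = 0.0481), a call held in 2 of 6 leave-one-out fits and lost with RLE size factors. The inhibitory subunit gene Gnai1 fell from 215 ± 15.4 to 112 ± 38.2 CPM (SD, 3 libraries each, log2 fold change -0.93, edgeR adjusted p = 0.0486), also held in 2 of 6. Gna12, of the family used by Adgrg1, fell from 104 ± 8.17 to 65.8 ± 7.24 CPM (log2 fold change -0.66, edgeR adjusted p = 0.00889), lost in 1 of the 6 fits. Its partner Gna13 had 0.05 (edgeR adjusted p = 0.771).

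Of 26 genes of cAMP synthesis, breakdown and response, 2 rose and 4 fell (median log2 fold change 0.12, and 0.02 without cKO replicate 2, where 4 rose and 5 fell). The shares over all genes tested were 8.55% higher and 10.3% lower, and 17.8% and 17.6% without cKO replicate 2. The adenylyl cyclase genes, which make cAMP, went both ways: Adcy1 (-1.08) and Adcy6 (-0.34) fell, and Adcy7 (0.65) and Adcy8 (1.33) rose. Adcy7 was called in all 6 leave-one-out fits and the other 3 in 1 or 2. The CREB coactivator genes Crtc1 (-0.48) and Crtc3 (-0.48) fell, while Creb1 (-0.02) was not called. The protein kinase A gene Prkaca had 1.04 and was not called (edgeR adjusted p = 0.304), with 368 CPM in cKO replicate 2 and 73.4 to 111 CPM in the other 5 libraries. Without WT replicate 1 or 3, none of the 4 falls was called by edgeR.

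Receptor kinases and arrestins, which switch activated receptors off, gave 0 calls of 7 in edgeR (2 at an unadjusted p below 0.05, 1 by DESeq2), with Grk2 at 0.03 and Arrb1 at 0.02. The transcription factors that act below Adgrg6 both fell. Pou3f1 had 136, 112 and 134 CPM in WT nerves, against 44.3, 16.1 and 43.9 in the cKO (log2 fold change -1.87, edgeR adjusted p = 0.0295, called in 1 of 6 leave-one-out fits). Egr2 had -1.76 and was called in all 6. As in Adgrg6, cKO replicate 2 was the lowest library for both.

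Schwann cell markers that moved beside the receptors did so by unequal amounts. S100b had a log2 fold change of -2.41, Sox10 -0.94 and Foxd3 -0.87, all called, Sox10 in 1 of 6 leave-one-out fits. Erbb3 (-0.57, edgeR adjusted p = 0.0758) and Cdh19 (0.07, edgeR adjusted p = 0.860) were not. Erbb3 was called lower by DESeq2 (adjusted p = 0.0230) and in 2 of 6 leave-one-out fits. Cdh19 was called higher without cKO replicate 2 (0.31, edgeR adjusted p = 0.0195). The values of Adgrg6 (-1.07) and Adgrg1 (-0.85) lay near that of Sox10, and that of Gpr37l1 (-2.58) near that of S100b. These differences between genes were not tested.

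The genes whose centred log2 CPM profile over the 6 libraries was nearest to that of Adgrg6, by root mean square difference among 10837 genes whose average log2 CPM reached 3, were Arhgef28 (0.045), Epb41l4a (0.055), Chst3 (0.064), Plxnb3 (0.068) and Sh3tc2 (0.070). Their log2 fold changes ran from -1.17 for Chst3 to -1.07 for Sh3tc2. For Gpr37 the 5 nearest included Svip (0.35), Tmem229a (0.37), Ddn (0.54) and Lss (0.55), with log2 fold changes from -3.74 for Ddn to -3.09 for Lss. Since the genes were picked by nearness in these same libraries, fold changes near that of each receptor follow from the choice. Shared function or control was not tested. The distances of the 2 receptors cannot be compared, since the measure is not scaled to the size of the change. Gpr37 also had few counts in cKO (32 to 55). Svip and Tmem229a had their highest cKO value in replicate 2, as Gpr37 did, and Ddn and Lss had their lowest there. For Svip the margin was small, with 12.67 CPM in cKO replicate 2 and 12.57 in cKO replicate 3.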

How the data were processed

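RNA of sciatic nerve from 3 WT and 3 cKO samples was sequenced, and each title gave a sample its group and number. The authors deposited 1 table of raw counts of fragments per gene, made per the file headers with featureCounts 1.6.1 on exons of Ensembl GRCm38 release 95, with both ends aligned, a minimum mapping quality of 20 and strand not used. The same table gives exonic lengths. Subread 2.0 and DESeq2 1.3 are named in the submitters' processing notes; how the aligner was set is not given in the sources. Rows of the mitochondrial chromosome (37) held 0 counts. Symbols matched for 54723 of 54838 identifiers.

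Counts were tested with edgeR 4.0.16 in R 4.3.3 (filterByExpr with a minimum count of 10, TMM, robust quasi-likelihood F test, 4 residual degrees of freedom), and with DESeq2 1.42.0 as an alternative. The edgeR fit was also run on simulated counts with known folds. Those counts held no library that stood apart as cKO replicate 2 does, so they do not test that case. SE and 95% intervals were derived from the quasi-likelihood statistic. No pair of replicates agreed within sampling noise (chi-square divided by its degrees of freedom was 8.98 or more). The receptors, lists and rule for named genes (the 10 receptors, members of the lists, and the 5 nearest profiles to Adgrg6 and to Gpr37) were chosen with earlier results of these data known; motifs and host genes were chosen after values were seen. Ratios of receptor pairs used a prior count of 0.5. Other settings tried were RLE size factors, no low-count filter, a replicate block, and leaving out each library in turn. Nothing was corrected for muscle or erythroid transcripts. Some genes of the marker lists and of the nearest profiles are not reported here.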

Additional observations from a re-analysis of the deposited data

How the results depend on the processing

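All 6 receptor calls kept direction and call with RLE size factors, with DESeq2 and with no low-count filter. Leaving out 1 library at a time, called receptors numbered 3 to 5 lower and 1 higher. The 3 were without WT replicate 1, where 4.3% of all genes fell. The log2 fold change of Adgrg6 ranged from -1.22 to -0.89 and that of Lpar1 from -0.71 to -0.51, and those of the uncalled Adgrb3 from -0.13 to 0.28 and S1pr3 from -0.14 to 0.18, so their sign was not fixed. The log2 ratio difference of S1pr1 to S1pr3 ranged from -0.10 to 0.45. Genes called over the whole table ranged from 449 to 3425 higher (1605 in all libraries) and 790 to 3398 lower (1929), highest without cKO replicate 2. In the 8 pathway lists together, 11 genes were higher and 15 lower, with ranges of 3 to 24 and 5 to 21, and 18 higher with DESeq2. Same-numbered samples did not deviate together (correlations of deviations -0.204, -0.209 and -0.073). The labels state no pairing, and with 3 libraries a group this check cannot exclude one. With the replicate block 744 genes were higher and 1108 lower, 7 pathway genes were higher, and Lpar1 was not called (-0.65, edgeR adjusted p = 0.0576). The order of the receptors by mean level per length was the same with FPKM on TMM-scaled library sizes as with TPM. Within a library both measures always give the same order, so only the weight of each library in the mean could change it. Having 3 libraries a group limits precision, as do the 32 to 55 counts of Gpr37 in cKO, and the cause of these shifts was not tested.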
